A study of Mus musculus with 38 samples.

Results

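The endogenous retroviruses of the ERV1 class are the gammaretrovirus-related copies of the mouse genome. They were chosen by annotation alone, as the subfamilies whose family name is ERV1 and the genomic copies that carry those subfamily names. This gave 149 of 1153 transposable element (TE) subfamilies and 60394 copies outside the X and Y chromosomes, of 3494634 annotated LINE, SINE and LTR copies. The subfamily counts could not be split by chromosome and so include copies on X and Y.

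A gammaretroviral provirus has an internal coding part (names ending in -int) between a pair of long terminal repeats (LTRs), which hold its promoter and its polyadenylation signal, and a primer binding site just after the first LTR where a host tRNA starts reverse transcription. Old copies are mostly solitary LTRs or fragments, and young ones can still be transcribed. In embryonic and neural cells such copies are silenced by zinc finger proteins that recognise the sequence, among them ZFP809, which binds the proline primer binding site of murine leukaemia virus, and that recruit TRIM28 (KAP1) and the histone methyltransferase SETDB1, which deposits H3K9me3.

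The study asked what the loss of Trim28 does to transposable elements in dividing neural progenitors, in mature neurons and during brain development, with 5 bulk RNA-seq experiments. Neural progenitor cell (NPC) cultures came from the forebrain of Rosa26-Cas9 knock-in embryos. They received lentiviral guide RNAs to exon 3, 4 or 13 of Trim28 (6 KO libraries, 2 per guide) or to lacZ (2 controls), expanded for 10 days and were sorted on the RFP reporter. Their library numbers form an earlier and a later series, each with the 3 guides and a control, marked a and b here (KO 3a is guide 3 of the earlier series). In adult Cas9 GFP knock-in mice, guides to exon 3, 4 or 13 or all of them together (4 KO libraries) or to lacZ (1 control) were delivered to the striatum by AAV with a reporter under the neuron-specific Synapsin promoter, and nuclei were sorted. The same design was used in Stop-Cas9-GFP knock-in mice (4 KO and 1 control), where Cre from the Synapsin promoter turns on Cas9. In adult Trim28 floxed mice, Cre was given to forebrain neurons by AAV, again from the Synapsin promoter, in animals described as +/- and +/+ for the floxed allele (4 libraries labelled KO and 4 labelled control). Emx1-Cre acts in the progenitors of the dorsal forebrain and so in the excitatory neurons, astrocytes and much of the oligodendrocyte lineage of the cortex, but not in its interneurons, microglia or vessels. Cortex at 3 months of age came from Emx1-Cre +/-; Trim28-fl +/+ animals (3 KO). The father also carried gtRosa +/-. The 3 controls are given by the labels as Emx1-Cre +/-; Trim28-fl +/-, so that they also carry an excised allele, while another text of the study calls them Cre-negative. The study's methods describe the NPC groups as biological triplicates, where the labels give 2 libraries per guide and 2 controls. For the other experiments the labels do not say which libraries came from separate animals, and p-values measure the spread between these libraries. In these bulk samples, fewer cells of a type and less RNA per cell cannot be told apart.

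Counts on genes per library ran from 9996885 to 19922767 in NPCs, 10864631 to 13595653 in Cas9 GFP neurons, 9147438 to 11926058 in Stop-Cas9-GFP neurons, 17256362 to 24212358 in floxed neurons and 16748967 to 25345083 in the Emx1-Cre cortex. ERV1 subfamilies took 10.5% ± 0.654 (SD, n = 6) of the counts on TE subfamilies in KO NPCs and 9.98% ± 0.203 (n = 2) in control NPCs. The share was far lower in the other experiments. It was 1.83% ± 0.0304 (n = 4) in the KO Cas9 GFP neurons and 1.73% in their control, and 1.90% ± 0.102 (n = 4) in the KO Stop-Cas9-GFP neurons and 1.68% in their control. In the floxed neurons it was 2.14% ± 0.0997 (n = 4) in the libraries labelled KO and 2.01% ± 0.0928 (n = 4) in those labelled control, and in the Emx1-Cre cortex 3.54% ± 0.161 (n = 3) in KO and 3.83% ± 0.200 (n = 3) in control.

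Trim28 itself was measured first, because it checks the labels at the level of RNA. Where guides cut the gene, in NPCs and in Cas9 GFP and Stop-Cas9-GFP neurons, RNA counts do not show whether protein was still made. In NPCs Trim28 was between 36.8 and 73.6 CPM (counts-per-million scale, relative to the gene counts) in the 6 KO libraries, with a median of 47.8, against 157.0 and 204.3 CPM in the controls. The groups did not overlap, and the log2 fold change was -1.82 with a standard error (SE) of 0.253 (adjusted p = 0.031, edgeR's quasi-likelihood test with Benjamini-Hochberg adjustment). This call was lost when any of the KO libraries 3b, 4a, 4b and 13a or either control was left out (log2 fold change -1.997 to -1.62 over all libraries left out). In the Emx1-Cre cortex Trim28 was 6.08, 8.53 and 8.88 CPM in KO and 20.9, 18.98 and 21.4 CPM in control, a log2 fold change of -1.39 (SE 0.150, edgeR adjusted p = 0.000378). In the Cas9 GFP neurons Trim28 was 96.6 ± 4.42 CPM in the KO libraries (n = 4) and 139.5 CPM in the control, and in the Stop-Cas9-GFP neurons 100.2 ± 17.6 CPM and 102.6 CPM. Neither difference passed (log2 fold changes -0.53 and -0.03, edgeR adjusted p = 0.437 and 0.9999).

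Trim28 in the floxed neurons went against the labels. It was 130.6, 146.4, 136.2 and 130.7 CPM in the libraries labelled KO and 28.1, 25.7, 31.6 and 28.1 CPM in the libraries labelled control (log2 fold change 2.26, SE 0.102, edgeR adjusted p = 2.74e-06). Every direction given below for the floxed neurons is that of the labels, and the libraries with the lower Trim28 are those labelled control. The labels number 1 library of each group apart from the other 6, in a later series. Both libraries of that series deviated together from their group means (correlation 0.583 over 17102 genes and 0.769 over 885 TE subfamilies).

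**Figure D1:**
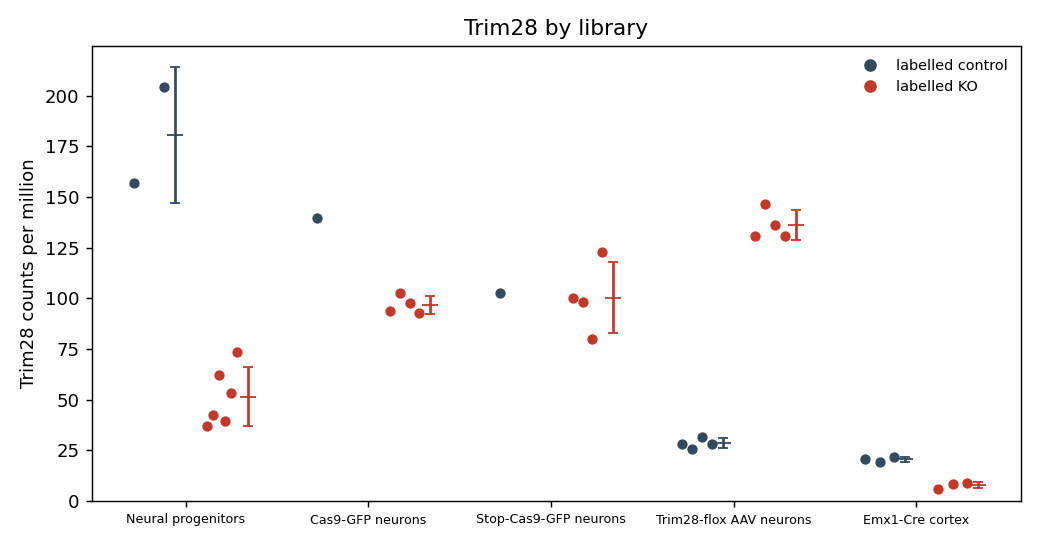
Trim28 CPM in each library of the 5 experiments (points; the bars give mean and SD where a group holds more than 1 library). The KO libraries lie below the controls in NPCs and in the Emx1-Cre cortex, and the libraries labelled KO lie above those labelled control in the floxed neurons.

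Of the other repressors, Setdb1, the H3K9 methyltransferase of the complex, did not pass in any of the 5 experiments (edgeR). Zfp809 was 28.2 to 36.6 CPM in the KO NPCs, with a median of 31.7, and 15.1 and 16.6 CPM in the controls. These groups did not overlap but the difference missed the threshold (log2 fold change 1.03, SE 0.161, edgeR adjusted p = 0.0555). In the Emx1-Cre cortex Zfp809 was 11.6 ± 0.866 CPM in KO and 11.5 ± 0.383 CPM in control (n = 3 each). Among 31 listed repressor genes, of which 26 to 29 were tested per experiment, Trim28 alone passed, downward in NPCs and in the Emx1-Cre cortex and upward in the libraries labelled KO of the floxed neurons. Of all genes tested, 0.176% were called up and 0.0182% down in NPCs, 0.86% and 0.467% in the cortex, 0.0117% and 0.0292% in the floxed neurons, 0.0112% and 0.0112% in Cas9 GFP neurons and 0.00567% and 0% in Stop-Cas9-GFP neurons. Of 16 genes for viral receptors and restriction factors, of which 12 to 16 were tested per experiment, edgeR called 0 of those tested, and 0, 2, 0, 1 and 4 had an unadjusted p under 0.05 in NPCs, Cas9 GFP, Stop-Cas9-GFP and floxed neurons and the cortex. Of 18 nucleic acid sensor genes 16 were matched and 11, 13, 12, 9 and 14 tested in the same order, of which edgeR also called 0, with 0, 0, 2, 0 and 1 at that level. The share of all genes there was 4.57%, 8.17%, 2.54%, 4.74% and 9.15%. DESeq2 was not run for these lists. The median log2 fold change of the sensors was 0.04 in NPCs and -0.08 in the Emx1-Cre cortex, beside 0.01 and 0.01 over all genes tested.

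Before any contrast, the ERV1 subfamilies differed greatly in level, given here as subfamily CPM per kb of annotated sequence in the controls. In NPCs the 3 highest were MER50B (187 ± 62.5, n = 2), MMERGLN_LTR (55.02 ± 2.57) and MMERGLN-int (44.6 ± 3.52). MER50B has only 1.293 kb of annotated sequence, and 99.4% of its unique counts in NPCs and 99.9% in the cortex lay on 1 copy of 131 bp, MER50B_dup1, which overlaps an exon of the phosphoprotein gene Pea15a on the opposite strand. The most counted ERV1 copy of the cortex, MER34B-int_dup63 (12.4% of the unique ERV1 counts), likewise lies in an exon, of the 14-3-3 gene Ywhaz. The part of these genes' own transcripts in the levels was not tested. In the Emx1-Cre cortex they were MER50B (101.9 ± 43.6, n = 3), RLTR4_MM-int (34.3 ± 3.47) and MER51-int (18.7 ± 1.33). In the floxed neurons RLTR4_Mm, RLTR4_MM-int and MER34B-int led with 12.9, 6.95 and 5.83, in the Cas9 GFP control LTR39, MER66A and RLTR4_MM-int with 14.3, 9.66 and 6.85, and in the Stop-Cas9-GFP control MER66A, RLTR4_MM-int and LTR109A2 with 8.40, 6.07 and 5.97. None of these subfamilies passed the test in the experiment where it led, among those tested there.

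A subfamily or copy was called when edgeR's adjusted p was under 0.05 and the log2 fold change beyond 0.5. In the Emx1-Cre cortex 4 of 77 ERV1 subfamilies tested were called up (5.19%) and 0 down, where 3.92% of all TE subfamilies tested were called up. DESeq2 also called 4 up. In NPCs 0 of 78 were called in either direction, where 1% of all were called up (5 at an unadjusted p under 0.05, where 8.5% of all lay; 2 up by DESeq2). Calls in either direction were 0 of 104 in the Cas9 GFP neurons, 0 of 105 in the Stop-Cas9-GFP neurons and 0 of 87 in the floxed neurons (12, 4 and 3 at an unadjusted edgeR p under 0.05; DESeq2 called 0 in each), where 0% of all subfamilies were called and 9.9%, 2.86% and 2.94% lay under that p. In the cortex 8 lay under it, beside 12.3% of all. The median log2 fold change of the ERV1 subfamilies was -0.04 in NPCs, 0.21, 0.19 and 0.08 in the 3 neuron experiments in this order and 0.04 in the Emx1-Cre cortex, beside -0.02, 0.04, 0.02, 0.00 and -0.01 over all subfamilies.

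MMERGLN-int, the internal part of the GLN family, whose name refers to its glutamine tRNA primer, was 1047, 990.6 and 1276 CPM of all subfamily counts in KO cortex and 513.6, 501.1 and 502.1 in control cortex. All KO libraries stood above all controls, and the log2 fold change was 1.12 (SE 0.110, edgeR adjusted p = 2.39e-05). In NPCs MMERGLN-int was 61870 ± 5655 CPM in KO (n = 6) and 56450 ± 4456 CPM in control (n = 2), and did not pass (log2 fold change 0.13, edgeR adjusted p = 0.818). The KO effect differed between the Emx1-Cre cortex and NPCs by 0.98 on the log2 scale (SE 0.139, edgeR interaction test, adjusted p = 0.0035). In the unique counts 1 copy, MMERGLN-int_dup223, held most of this subfamily in NPCs, and without it the KO to control ratio was 2.17 in NPCs and 2.15 in the cortex. The difference between the experiments without that copy was not tested.

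MER92-int, an internal part whose called copies are fragments of 188 to 349 bp, was 293.7, 703.3 and 524.6 CPM in KO cortex and 57.9, 63.0 and 65.9 CPM in control cortex. The log2 fold change was 3.02 (SE 0.296, edgeR adjusted p = 2.39e-05), and it differed from that in NPCs by 3.20 (SE 0.558, interaction adjusted p = 0.0119). The 4 copies called in the cortex lie in 1 locus and held 0 unique counts in every NPC library. In the other experiments MER92-int was between 3.97 and 83.3 CPM in every library. MMERGLN-int and MER92-int were the only ERV1 subfamilies of the 92 tested whose effect differed between cortex and NPCs (0.349% of all subfamilies did so; DESeq2 also found 2). At an unadjusted p under 0.05 there were 8, beside 6.51% of all. Between cortex and floxed neurons, as labelled, 0 of 102 differed in edgeR (9 at an unadjusted p under 0.05; 3 by DESeq2), where 1.69% of all did and 8.03% lay under that p. Between NPCs and floxed neurons, as labelled, 0 of 96 differed (6 at that p; 2 by DESeq2), where 0.541% of all did and 5.95% lay under it. With the floxed contrast turned, labelled control minus labelled KO, edgeR found 0 of 102 for the cortex (7 at that p; 1 by DESeq2), where 1.69% of all differed, and 0 of 96 for NPCs (4 at that p; 0 by DESeq2), where 0.973% of all did.

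MER31B, an LTR, was 158.7, 299.1 and 179.4 CPM in KO cortex and 94.7, 103.3 and 75.6 CPM in control cortex (log2 fold change 1.24, SE 0.249, edgeR adjusted p = 0.0105). Its call was lost without control 64 (adjusted p = 0.0512) or control 77 (adjusted p = 0.0617). In the unique counts the KO cortex held 117 of 367 MER31B counts on 1 called copy, MER31B_dup478, and the control cortex 5 of 355. Without that copy MER31B summed to 5.08 ± 0.253 CPM in KO and 5.17 ± 0.408 CPM in control (n = 3 each), with overlap. MuRRS4-int, named for a murine retrovirus-related sequence, was 502.1, 521.0 and 568.6 CPM in KO and 392.7, 375.2 and 349.0 CPM in control, with a log2 fold change just over the threshold (0.51, SE 0.103, edgeR adjusted p = 0.0109). It fell to 0.46 without KO 76 and to 0.47 without control 77. Its 2 called copies, dup272 and dup273, held 210 of 885 unique counts in KO and 40 of 888 in control. Without them it summed to 13.7 ± 1.93 CPM in KO and 12.4 ± 1.68 CPM in control, with overlap. Of the 2735 annotated MuRRS4-int copies only 779 lie outside X and Y. The subfamily counts include the copies on X and Y, and their part in the difference was not tested.

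MuLV-int, the internal part named for murine leukaemia virus, was not called in any experiment. In the cortex its 3 KO libraries ran from 485.5 to 646.5 CPM and its controls from 327.8 to 566.6 CPM, overlapping ranges (log2 fold change 0.44, edgeR adjusted p = 0.325, or 0.68 with adjusted p = 0.0256 without control 65). RLTR6-int, an internal part found with RLTR6 LTRs, was 427.4 to 934.9 CPM in KO NPCs with a median of 633.9, above the 379.1 and 368.8 CPM of the controls, but did not pass (log2 fold change 0.76, edgeR adjusted p = 0.364). RLTR6-int in the floxed neurons was 708, 763.4, 760 and 355 CPM in the libraries labelled KO and 2113, 1271, 1292 and 603.9 CPM in those labelled control (log2 fold change -1.03, SE 0.357, edgeR adjusted p = 0.9998). The 355 and 603.9 CPM belong to the later number series. With the series as a block, an alternative chosen after the data were seen, the log2 fold change was -1.0 (SE 0.141, edgeR adjusted p = 0.00673), the 1 TE subfamily called down of all those tested (0.113%).

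**Figure D2:**
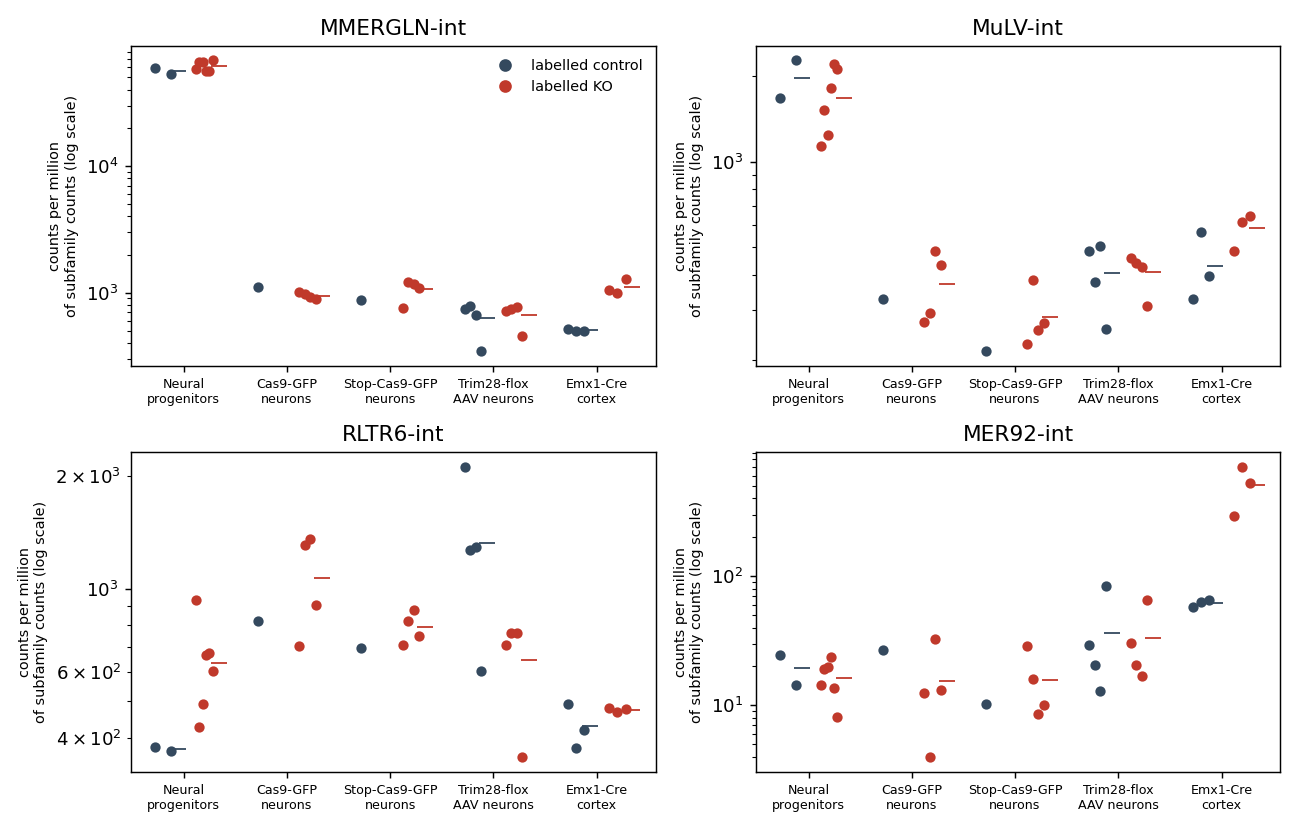
CPM relative to subfamily counts (log scales) for 4 ERV1 subfamilies in each library of the 5 experiments; short lines are group means where a group holds more than 1 library. MMERGLN-int and MER92-int do not overlap between KO and control in the Emx1-Cre cortex, while MMERGLN-int is highest in NPCs in both groups.

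Individual copies, counted from uniquely mapped reads and scaled to the gene counts, were analysed in NPCs, floxed neurons and Emx1-Cre cortex. Of the 60394 ERV1 copies, 8537, 11859 and 7887 held any count there and 562, 675 and 303 passed the filter on low counts. In NPCs 10 of the 562 were called up (1.78%) and 0 down, where 0.55% of all copies tested were called up, and 52 of the 56 with an unadjusted p under 0.05 (4.61% of all copies) were up. With the number series of the libraries as a block, edgeR called 18, all 10 among them, and DESeq2 called 14 up and 0 down. In the Emx1-Cre cortex 15 of 303 were called up (4.95%) and 0 down, where 2.67% of all copies were called up and 0.254% down, and DESeq2 called 12 up and 0 down, all 12 among the 15. An unadjusted p under 0.05 was reached by 40, 32 of them up, and by 8.24% of all copies. In the floxed neurons 0 of 675 were called (20 at an unadjusted edgeR p under 0.05, beside 1.52% of all; 2 down by DESeq2), where 0.00641% of all copies were called down and 0% up. With the number series as a block edgeR called 3 ERV1 copies down and 0 up there, beside 0.0897% of all copies down and 0.00214% up. The median log2 fold change of the ERV1 copies tested was 0.30 in NPCs and 0.03 in cortex, beside 0.20 and 0.01 over all copies.

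In all 25 calls every KO library stood above every control, as in 100% of all TE copies called up in NPCs and 96.6% in the cortex, and in 5.63% and 7.48% of all those tested. In NPCs 2 calls were left without control a and 3 without control b. The 15 cortex calls lay in 10 loci (copies within 50000 bp joined), with 5 of them between 60142048 and 60189371 on chromosome 15, and the 10 NPC calls in 10 loci. MuLV-int_dup107 was called in both experiments. Other settings gave further copies in both. Without the filter on low counts edgeR called RLTR14_dup670 (adjusted p = 0.0279 in NPCs and 8.9e-13 in cortex), MuRRS4-int_dup465 (1.99e-08 and 5.14e-10), MMERGLN-int_dup115 (1.65e-07 and 0.000335) and MMERGLN-int_dup802 (5.82e-13 and 0.00263) in both. With the number series as a block, edgeR called the cortex copies MMERGLN-int_dup734 (log2 fold change 1.34, adjusted p = 0.0158) and RLTR14_dup670 (5.998, adjusted p = 0.0398) in NPCs, and DESeq2 called dup734 there (adjusted p = 0.0143).

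MuLV-int_dup107 (chr8:123426327-123434006, minus strand, GRCm38, 7680 bp with RLTR4_Mm LTRs on both sides) lies in an intron of Def8, opposite to its strand, and 4312 bp from the neuronal tubulin gene Tubb3. The C57BL/6 genome carries the ecotropic provirus Emv2 in this part of chromosome 8, and whether the copy is that provirus was not tested. In KO NPCs it held 429, 46, 59, 24, 151 and 26 counts and in both controls 0. The level was 6.96 ± 8.23 CPM (n = 6), at least 44.9-fold higher than 3 counts per control library would allow (edgeR adjusted p = 0.0458). KO 3a was the highest library, and without it the level was 3.77 ± 2.88 CPM and the bound 24.3-fold. The call was lost without KO 4a (adjusted p = 0.0723), KO 13a (0.0849), control a (0.266) or control b (0.294), and with copies scaled to the copy counts (0.0543). In KO cortex the copy held 60, 70 and 45 counts and in control cortex 1, 0 and 0. That was 3.53 ± 0.109 CPM against 0.0121 ± 0.0210 CPM (n = 3 each), a log2 fold change of 7.40 (SE 0.490, edgeR adjusted p = 8.47e-13). The floxed neurons held 1 count in 1 library labelled KO and 7 counts in 1 library labelled control, too few to compare its effect there with that in the cortex. Without this copy, MuLV-int summed over unique reads to 9.95 ± 2.20 CPM in KO and 9.56 ± 1.98 CPM in control cortex. Def8 and Tubb3 were not called in NPCs or cortex.

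GLN proviruses made up 6 of the 10 calls in NPCs in the fit without a block. The 60 bases across the end of the first LTR are shown because they differ in the primer binding site, the 18 bases in capitals. The sequences are from the GRCm38 reference, 5′ to 3′ on the strand of the provirus, and the provirus called in cortex (MMERGLN-int_dup734) and the called RLTR6-int provirus are set beside them.
MMERGLN-int_dup802 (chr17:34759964-34760023, minus): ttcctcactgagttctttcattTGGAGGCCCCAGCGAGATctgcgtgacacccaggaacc
MMERGLN-int_dup787 (chr16:55955235-55955294, plus): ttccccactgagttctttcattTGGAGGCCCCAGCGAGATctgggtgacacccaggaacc
MMERGLN-int_dup115 (chr4:95254665-95254724, plus): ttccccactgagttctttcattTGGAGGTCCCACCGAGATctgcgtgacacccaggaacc
MMERGLN-int_dup759 (chr15:83194169-83194228, plus): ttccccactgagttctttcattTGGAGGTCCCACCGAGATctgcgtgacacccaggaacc
MMERGLN-int_dup705 (chr13:103712862-103712921, plus): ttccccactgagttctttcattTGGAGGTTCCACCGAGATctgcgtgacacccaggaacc
MMERGLN-int_dup206 (chr8:25130632-25130691, minus): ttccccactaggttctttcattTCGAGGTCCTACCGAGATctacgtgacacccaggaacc
MMERGLN-int_dup734 (chr14:55979143-55979202, plus): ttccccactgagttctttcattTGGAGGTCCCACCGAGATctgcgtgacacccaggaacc
RLTR6-int_dup902 (chr10:78867535-78867594, minus): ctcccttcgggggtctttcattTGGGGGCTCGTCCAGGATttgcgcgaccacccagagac

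The primer binding site was taken as the 18 bases after the letters TTTCATT at the LTR border. Among 45 full GLN proviruses (internal part over 5000 bp with an LTR on both sides, chromosomes with a number), 19 carried TGGAGGTCCCACCGAGAT. Of these, 16 were tested in NPCs and 2 called, dup115 and dup759 (dup734, also of this form, was called with the number series as a block). The form of dup802 and dup787 differs from it by T7C and C12G (position 1 is the first base of the site, the commonest form's base first) and occurred in 4 proviruses, all tested, of which these 2 were called. The form of dup705 differs by C8T and occurred in 8 proviruses, of which 6 were tested and 1 called, and dup206 differs by G2C and C10T and was alone in its form. The first 6 bases TGGAGG were found at this place in 36 of 45 GLN and in 31 of 31 RLTR4_MM-int proviruses, and TGGGGG, as in RLTR6-int_dup902 and in the proline site of murine leukaemia virus, in 59 of 104 RLTR6-int proviruses. These counts describe the annotation and do not show which site binds a repressor. The calls counted by form are those made without a block. Over all copies tested in NPCs 0.55% were called up.

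MMERGLN-int_dup802 was 2.76 to 7.62 CPM in KO NPCs with a median of 4.57, against 0.161 and 0.249 CPM in the controls (log2 fold change 4.49, SE 0.595, edgeR adjusted p = 0.00193). It is 7556 bp long and lies 5294 bp from the pseudogene Stk19-ps1. This call held without each library in turn. The other called GLN copies fall outside the 5 largest changes and were named after their values were seen. MMERGLN-int_dup115 was 2.18 to 4.198 CPM with a median of 3.74, against 0.161 and 0.448 CPM (3.47, SE 0.476, adjusted p = 0.00249), and lost its call without control a (adjusted p = 0.0953). MMERGLN-int_dup787 was the most abundant of the called GLN copies, at 7.41 to 12.1 CPM with a median of 9.98 in KO and 2.31 and 3.63 CPM in the controls. It lies 3462 bp from Rpl24, on the same strand, and rose by 1.71 on the log2 scale (SE 0.325, edgeR adjusted p = 0.0253). The remaining called GLN copies were dup759 (2.53, adjusted p = 0.0428), dup705 (2.52, 0.0160) and dup206 (1.99, 0.0158). All of dup787, dup759, dup705 and dup206 lost the call without either control, with adjusted p between 0.117 and 0.777, and dup759 also without KO 3b, 4a, 4b, 13a or 13b and dup787 without KO 3b or 4b. With copies scaled to the copy counts dup759 and dup787 were not called (adjusted p = 0.108 and 0.102).

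Among the GLN proviruses that passed the low-count filter in NPCs most differences were upward. Of 30 tested, 6 were called. The other 24 ran from -1.04 to 3.07 on the log2 scale with a median of 0.80, 23 of them above 0. With the number series as a block edgeR also called dup71 (2.99, adjusted p = 0.000158), dup733 (1.98, 0.0049) and dup734 (1.34, 0.0158). DESeq2 called these too. Over all copies tested the median was 0.20 and 0.55% were called up. The other 15 of the 45 GLN proviruses did not pass the low-count filter. A copy can pass that filter through its KO libraries alone, so no direction for the whole family is read from those tested. The LTRs of the 6 called proviruses were 93.0% to 100% identical within a pair, with a median of 99.3%, and those of 23 uncalled ones with a comparable pair 95.7% to 100% with a median of 99.8%.

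**Figure D3:**
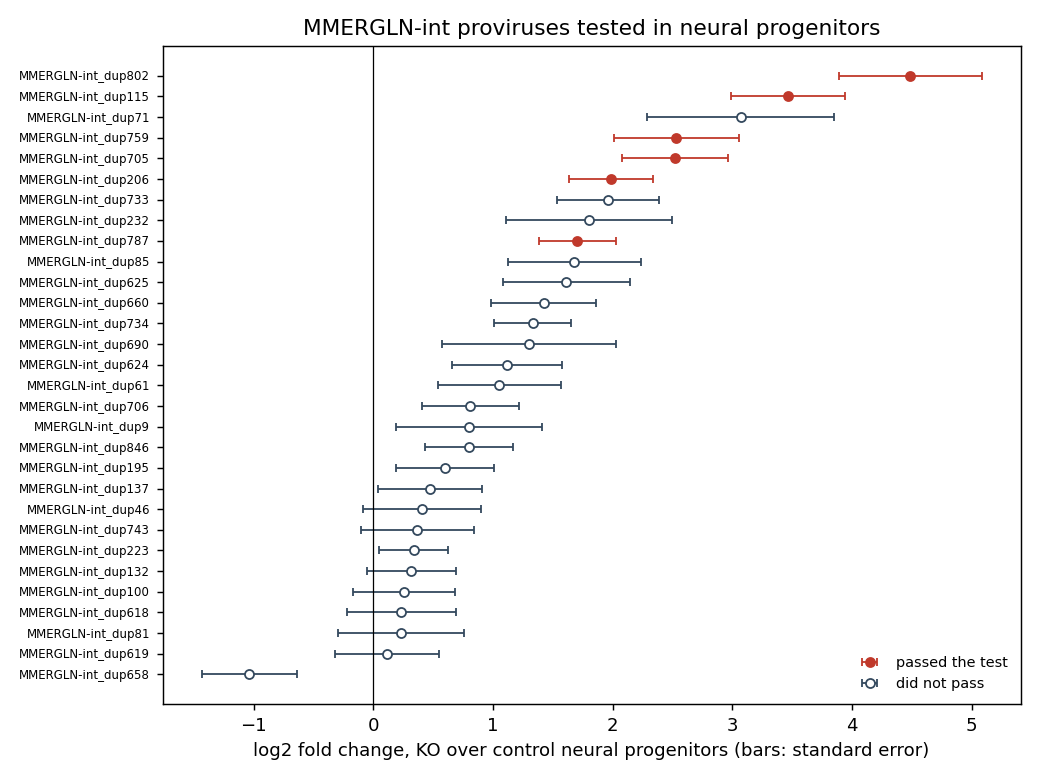
Log2 fold change, KO over control, with its standard error for the 30 full MMERGLN-int proviruses tested in NPCs, ordered by size (filled points passed the test). All but 1 lie above 0, and the 6 that passed run from 1.71 to 4.49. The 30 are those that passed the low-count filter, which a copy can pass through its KO libraries alone.

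A copy of the same family held most of the ERV1 reads in NPCs. MMERGLN-int_dup223 (chr8:121833275-121840834, plus strand, in an intron of Gm20388 on the same strand) took 52.7% of all unique counts on ERV1 copies, and 95.8% of the unique MMERGLN-int counts in KO and 97.4% in control. It was 1864 to 3472 CPM in KO with a median of 2850, and 1868 and 2454 CPM in the controls, so the groups overlapped (log2 fold change 0.34, SE 0.288, edgeR adjusted p = 0.9996). Without this copy the remaining MMERGLN-int copies summed to 124.0 ± 24.2 CPM in KO (n = 6) and 57.2 ± 8.65 CPM in control (n = 2), a ratio of 2.17 with no overlap, against 1.29 with it. Leaving out the 6 called copies as well gave 96.1 ± 18.4 and 51.7 ± 6.69 CPM, a ratio of 1.86, again with no overlap.

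In the cortex the MMERGLN-int copies without dup223 summed to 12.8, 11.8 and 18.2 CPM in KO and 6.75, 6.20 and 6.93 CPM in control (14.2 ± 3.42 and 6.63 ± 0.382, ratio 2.15). MMERGLN-int_dup734 (chr14:55979163-55986710, plus strand, 2353 bp from the pseudogene Gm48934) was its only called copy there, named after its values were seen, with 15, 14 and 14 counts in KO and 6, 5 and 6 in control (log2 fold change 1.79, SE 0.420, edgeR adjusted p = 0.00806). That call was lost by DESeq2 (adjusted p = 0.0535), without KO 76 (0.0866) and without control 64 (0.0763). In the floxed neurons the same sum, without the leading copy there (dup81), was 19.2 ± 3.79 CPM in the libraries labelled KO and 19.3 ± 4.07 CPM in those labelled control (n = 4 each).

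Of the remaining NPC calls, RLTR6-int_dup902 (chr10:78859985-78867574, minus strand, with RLTR6B_Mm LTRs, 7819 bp from the olfactory receptor gene Olfr1356) was 2.40 to 11.8 CPM in KO with a median of 4.00, and 0.0538 and 0.249 CPM in control. It rose by 5.03 on the log2 scale (SE 0.818, edgeR adjusted p = 0.00899), and the call was lost without control a (0.139) or b (0.0529). MuRRS4-int_dup465 (chr9:109460522-109464812, plus strand) held 12 to 46 counts in the 6 KO libraries and 0 in both controls, 1.48 ± 0.515 CPM and at least 9.52-fold higher (edgeR adjusted p = 0.0018). In the cortex it held 18, 4 and 15 counts in KO and 0 in all 3 controls, 0.806 ± 0.526 CPM and at least 5.97-fold higher. It did not pass the low-count filter there with all libraries, and edgeR called it without KO 73 or any 1 control (adjusted p from 2.28e-05 to 0.0023). RMER21A_dup473 (chr13:22846477-22847208, minus strand), an LTR copy, held 5 to 19 counts in KO and 0 in control, 0.728 ± 0.202 CPM and at least 4.69-fold higher (adjusted p = 0.00769; 0.114 and 0.124 without control a or b).

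Genes next to these last copies were also called. Of 18 genes tested within 20 kb of a called copy in NPCs, 6 were called up and 0 down, where 0.176% of all genes tested were called up. Fbxw19, an F-box gene 11842 bp from MuRRS4-int_dup465, was 10.3 CPM on average in KO and 0 in both controls (edgeR adjusted p = 0.00361), and Fbxw16, 11382 bp away, was 5.23 CPM and 0 (0.0308). The predicted genes Gm42494 and Gm42493 of the same region were at 2.43 and 0.696 CPM in KO and 0 in control (0.031 and 0.0417). Vmn1r211 and Vmn1r210, vomeronasal pheromone receptor genes 218 and 15129 bp from RMER21A_dup473 and on its strand, were 3.53 and 2.78 CPM in KO and 0 in both controls (edgeR adjusted p = 0.00704 and 0.00361). Fbxw19 kept its call without each library in turn. Vmn1r210 and Vmn1r211 lost it without either control (highest adjusted p 0.0619 and 0.111), and Fbxw16, Gm42494 and Gm42493 in 6, 7 and 8 of 8 omissions (highest 0.257, 0.348 and 0.431). Both gene families have near-identical members. Reads that map to more than 1 place were not counted, so the levels of such genes are uncertain.

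**Figure D4:**
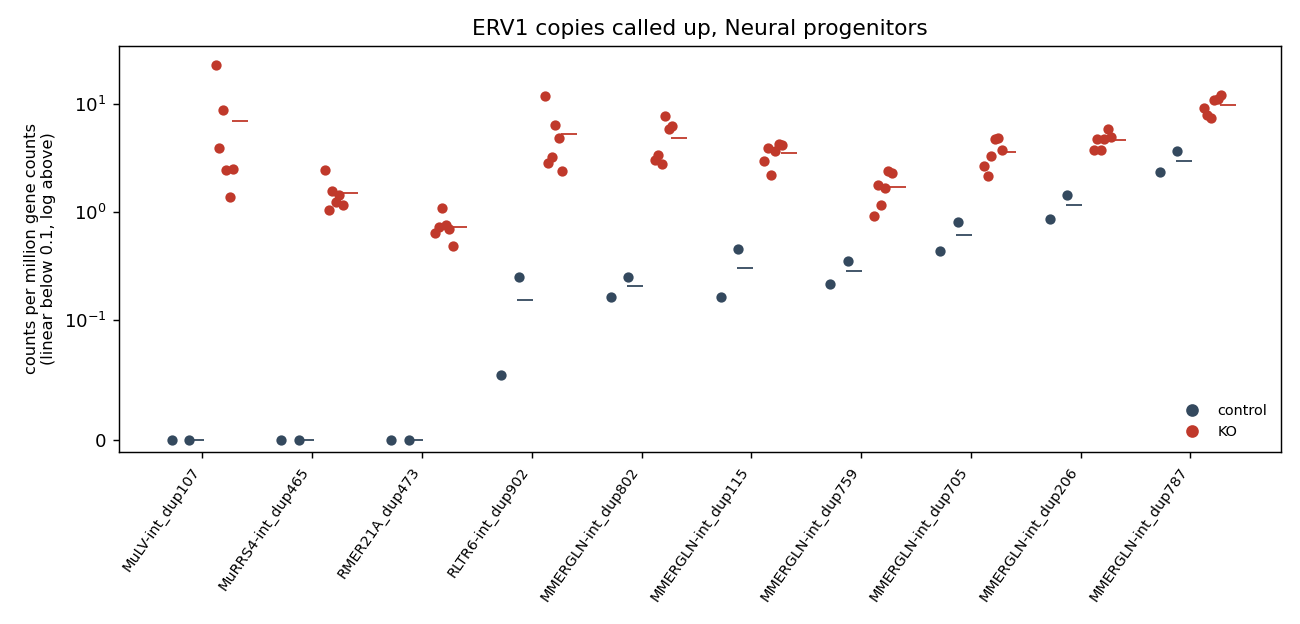
CPM relative to gene counts of the 10 ERV1 copies called up in NPCs, for each of the 6 KO and 2 control libraries (short lines are means; the axis is linear below 0.1 and logarithmic above). Every KO library lies above both controls for each copy, and the controls of the first 3 copies are at 0.

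The cortex calls were mostly fragments. On chromosome 15, MER92-int_dup254, dup256, dup257 and dup264 and MER31B_dup478 lie over 47324 bp, all but dup264 in introns of the long noncoding gene Gm2682 and opposite to its strand. MER92-int_dup254, named after its values were seen like dup256 and dup257, was 2.61, 5.69 and 4.36 CPM in KO and 0.544, 0.435 and 0.178 CPM in control (log2 fold change 3.41, SE 0.327, edgeR adjusted p = 3.21e-09). MER31B_dup478 was 1.36, 3.77 and 1.59 CPM in KO and 0.109, 0.109 and 0 CPM in control (4.87, SE 0.530, adjusted p = 4.06e-08), and MER92-int_dup264 was 0.625, 1.602 and 0.634 CPM in KO and 0.0363, 0.0544 and 0 CPM in control (4.81, SE 0.692, adjusted p = 7.30e-06). KO 73 was the highest library at each of these copies. Gm2682 was 3.67 ± 1.51 CPM in KO and 0.399 ± 0.113 CPM in control (3.15, SE 0.380, edgeR adjusted p = 0.000834). The part of Gm2682 transcripts in the counts of these copies was not tested. Of 5 MER92-int copies tested in the cortex 4 were called, beside 2.67% of all copies tested, and these 4 are the ones of this locus. Without them MER92-int summed to 2.06 ± 0.541 CPM in KO and 1.56 ± 0.513 CPM in control, with overlap, against 10.1 ± 3.41 and 2.31 ± 0.338 CPM with them.

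MMVL30-int_dup711 (chr12:59224616-59226540, plus strand, 4891 bp from the F-box gene Fbxo33), an internal part of the VL30 elements, was 3.24, 2.48 and 3.57 CPM in KO cortex and 0.399, 0.163 and 0.178 CPM in control (log2 fold change 3.52, SE 0.332, edgeR adjusted p = 2.33e-09). Fbxo33 was not called. RLTR14_dup670 (chr6:12846211-12846375, minus strand), a 165 bp LTR piece, held 16, 11 and 18 counts in KO and 0 in all 3 controls, 0.968 ± 0.432 CPM and at least 7.17-fold higher (adjusted p = 1.99e-06). The other called copies were named after their values were seen. MuRRS4-int_dup272 and dup273 lie side by side on chromosome 5 between 133292785 and 133296136 and rose by 2.69 and 3.51 (adjusted p = 3.75e-08 and 3.73e-05). In the floxed neurons both were lower in the libraries labelled KO, those with the higher Trim28, and higher in those labelled control. MuRRS4-int_dup272 was 1.52 to 3.22 CPM in the libraries labelled KO and 3.93 to 9.37 CPM in those labelled control, and dup273 was 1.06 to 1.85 and 3.06 to 4.66 CPM, with no overlap (log2 fold changes as labelled -1.37 and -1.43). Neither passed in edgeR (adjusted p = 0.9998 each), and DESeq2 called dup273 (adjusted p = 0.0177). With the number series as a block edgeR called both (adjusted p = 0.0177 and 0.00882). The cortex effect differed from the floxed effect as labelled by 3.98 and 4.93 (SE 0.564 and 0.626, interaction adjusted p = 0.00192 and 0.000598), 2 of the 3 ERV1 copies of 902 tested that passed (0.107% of all copies). The third, MuLV-int_dup107, held too few counts in the floxed neurons to be read. With the floxed contrast turned the differences were 1.23 and 2.06 (SE 0.553 and 0.628), 0 of 902 passed, and both copies were higher in the libraries with the lower Trim28 in both experiments. Between cortex and NPCs the effect differed for 0 of 711 ERV1 copies in edgeR (41 at an unadjusted p under 0.05, beside 3.85% of all; 0 by DESeq2), where 0.00497% of all copies differed. RLTR23_dup1299 overlaps an exon of the long noncoding gene Gm30371 on the opposite strand and rose by 2.33 (adjusted p = 0.000644), and Gm30371 itself was 12.5 CPM in KO and 3.51 CPM in control on average (1.84, edgeR adjusted p = 0.000131). These were the 2 of 7 genes tested within 20 kb that were called, where 0.86% of all genes were called up. Gm2682 and Gm30371 kept their calls without each library in turn. The part of Gm30371 transcripts in the counts of RLTR23_dup1299 was not tested.

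The smallest differences, named after their values were seen, were lost without some libraries. LTRIS_Mm_dup451 (1.56, adjusted p = 0.0422) lost its call without any 1 of the 6 libraries, MMVL30-int_dup168 (0.80, 0.0322) without KO 60 or 76 or control 64 or 65, and RLTR24_dup180 (0.83, 0.00938) without KO 60 or 73 or control 64, with adjusted p between 0.0632 and 0.394. DESeq2 did not call LTRIS_Mm_dup451 or MMVL30-int_dup168 (adjusted p = 0.260 and 0.127).

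**Figure D5:**
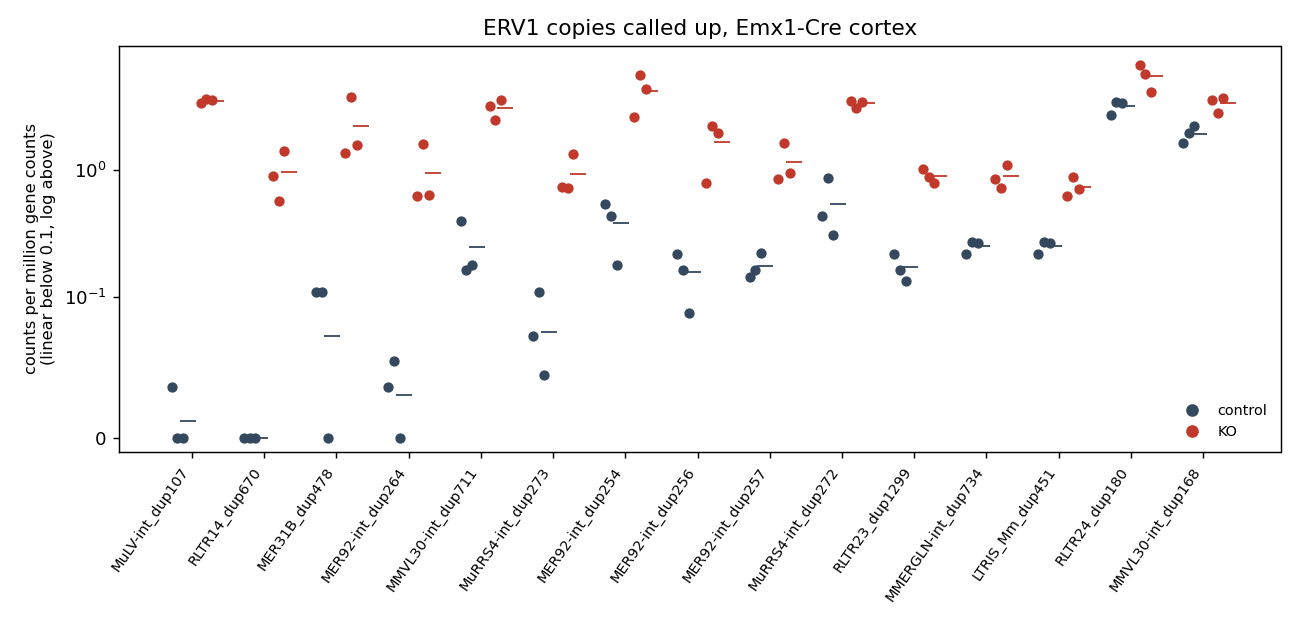
CPM relative to gene counts of the 15 ERV1 copies called up in the Emx1-Cre cortex, for each of the 3 KO and 3 control libraries (short lines are means; the axis is linear below 0.1 and logarithmic above). The KO libraries lie above all controls at each copy, and the controls of RLTR14_dup670 are all at 0.

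Calls were counted by structure. In NPCs 8 of the 10 calls were among the 40 tested internal parts with paired LTRs, 1 among 115 internal parts without them and 1 among 407 LTRs. In the cortex the calls were 3 of 12, 7 of 76 and 5 of 215, and in the floxed neurons 0 of 14, 138 and 523. Over all TE copies tested 0.55% were called up in NPCs and 2.67% in the cortex, and the 5 of 215 LTRs of the cortex are near that share. GLN proviruses made up 6 of the 8 NPC calls with paired LTRs. A copy can pass the low-count filter through its KO libraries alone, and the structures also differ in length and family. No effect of structure is read from these counts. Of 104 full RLTR6-int and 31 full RLTR4_MM-int proviruses, 2 of each were tested in NPCs, and the paired LTRs of the untested ones were identical to 99.1% and 100% in the median.

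Among floxed neurons the copy with most unique RLTR6-int counts in the libraries labelled control (32.9%) was RLTR6-int_dup939 (chr11:121311593-121317617, minus strand, 1697 bp from the forkhead gene Foxk2), chosen after its values were seen. It held 906, 160, 253 and 127 counts in the libraries labelled control, those with the lower Trim28, and 10, 28, 10 and 4 in the libraries labelled KO. These were 38.6, 9.20, 11.6 and 7.20 CPM against 0.556, 1.56, 0.481 and 0.190 CPM, with no overlap. The log2 fold change as labelled was -4.58 (SE 0.721), and edgeR's adjusted p was 0.169, above the threshold, while DESeq2 called it (adjusted p = 2.37e-07). Without the control-labelled library of the later number series edgeR called it as well (-4.84, adjusted p = 0.0266), as it did with the number series as a block (-4.62, SE 0.431, adjusted p = 2.99e-06). In NPCs the copy was at 3.85 CPM in KO and 2.80 CPM in control on average, a log2 fold change of 0.46. That effect differed from the floxed effect as labelled by 5.01 (SE 0.839, edgeR interaction adjusted p = 0.0241), the only ERV1 copy of 1192 with such a difference (0.0238% of all copies). With the floxed contrast turned the order was the opposite, the NPC effect being the smaller (-4.18, SE 0.731, adjusted p = 0.0889, not past the threshold). Without it, RLTR6-int still summed to 36.3 ± 3.72 CPM in the libraries labelled control and 26.7 ± 4.27 CPM in those labelled KO, with no overlap (n = 4 each).

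The makeup of the samples was read from marker genes. In NPCs the 8 neural progenitor markers summed to 5934 ± 1457 CPM in KO (n = 6) and 6677 ± 874 CPM in control (n = 2), Fabp7 being the most abundant, and red blood cell markers were at 0 in every library. None of the markers was called there, but the oligodendrocyte progenitor sum was lower in KO with no overlap (57.4 ± 26.5 and 133.4 ± 1.03 CPM). In the cortex 1 of 8 progenitor markers was called, Fabp7, at 48.3 ± 9.77 CPM in KO and 23.8 ± 1.32 CPM in control (log2 fold change 1.02, edgeR adjusted p = 0.0019), and their sum was 132.0 ± 14.8 and 98.2 ± 3.51 CPM. Sox2 was also higher in KO (means 50.4 and 42.9 CPM) and Pax6 was lower (5.19 and 5.74 CPM). Neither was called, and neither overlapped between the groups. The 5 astrocyte markers summed to 925.3 ± 59.6 CPM in KO and 982.8 ± 105 CPM in control, with overlap and 0 called. The 4 oligodendrocyte markers summed to 2120 ± 79.5 CPM in KO and 2624 ± 116 CPM in control, with 0 called. Of 4 meningeal fibroblast markers Col1a2 was called, at 2.87 ± 0.812 and 6.03 ± 0.765 CPM (log2 fold change -1.08, edgeR adjusted p = 0.0244). Dcn, Col1a1 and Lum did not pass but were also lower in KO, with no overlap. Their means were 5.90 and 9.79, 0.671 and 1.23, and 1.70 and 3.22 CPM in KO and control. Over all genes tested in the cortex 0.86% were called up and 0.467% down. The 8 neuron markers summed to 9183 ± 669 and 9700 ± 277 CPM, and in the floxed neurons to 3130 ± 86.5 CPM in the libraries labelled KO and 3074 ± 107 CPM in those labelled control. The part of these differences in the ERV1 results was not tested.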

How the data were processed

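RNA-seq of 8 NPC, 5 Cas9 GFP, 5 Stop-Cas9-GFP, 8 Trim28 floxed and 6 Emx1-Cre libraries was used. Per the study's methods and labels, the authors mapped reads to GRCm38.p6 with STAR 2.6.0 and deposited whole-number counts per gene and per TE copy from uniquely mapped reads (featureCounts, Subread 1.6.3). They also deposited expected counts per gene and TE subfamily from TEtranscripts, where reads with up to 100 loci are shared among copies. The latter were rounded.

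Counts were fitted per experiment over all genes, subfamilies or copies with edgeR 4.0.16 (glmQLFit, glmQLFTest, filterByExpr, TMM; R 4.3.3), KO against control without further covariates, p-values being Benjamini-Hochberg adjusted over all features tested. DESeq2 1.42.0 was an alternative. Subfamilies were scaled to subfamily counts, copies to gene counts. Interactions were tested in joint fits. Scripts were tested on simulated data. Where a control group was at 0, folds were bounded with 3 counts per library. Scaling subfamilies to gene counts shifted the median log2 fold change of all subfamilies by 0.31 in NPCs, 0.32 in Cas9 GFP and 0.12 in Stop-Cas9-GFP neurons.

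Cas9 GFP and Stop-Cas9-GFP libraries were analysed by subfamily (the table's 5 Stop-Cas9-GFP columns are headed flexcas and were assigned by guide or control name), with gene values from the subfamily tables, although a test of their copies had been planned; copies in these libraries, 10 columns of the gene table and 16 of the copy table (6 of striatum matching no sample) were not used here, nor were the single-nucleus, CUT&RUN and MMERVK10C files.

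Named were MuLV-int, RLTR6-int, MMERGLN-int, every ERV1 subfamily called in an experiment, the 3 per experiment with the most control counts per kb, the 5 largest called copies per experiment and direction with non-overlapping groups, copies called in 2 experiments, and genes next to them. The members and lists were chosen with earlier results of these data known.

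NPC libraries fall into an earlier (a) and a later (b) number series, each with the 3 guides and a control. Libraries of a series deviated together from their group means (correlations 0.532 to 0.706 over genes and 0.32 to 0.40 over subfamilies), so the series was used as a replicate block. The floxed libraries were blocked likewise in an added alternative. Alternatives also included RLE factors, other library sizes, no filter and leaving out each library. Most calls of single copies rest on few counts per library, as printed.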

Additional observations from a re-analysis of the deposited data

Results flagged for a closer look

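In 53 sets of values over groups of 4 or 6 libraries, the highest or lowest library was set against the rest with Dixon's critical values, which chance passes in about 1 in 20 sets. In 7 sets a library stood apart. In KO NPCs, MER31B was lowest at 51.6 CPM (the nearest library was at 75.3). MuLV-int_dup107 was highest at 22.9 CPM (nearest 8.68) and MuRRS4-int_dup465 highest at 2.46 CPM (nearest 1.55). All of these values come from KO 3a. In floxed neurons labelled KO, MMERGLN-int was lowest at 454.1 CPM (nearest 717.6) and RLTR6-int lowest at 355.0 CPM (nearest 708). Both values come from the library of the later number series, and the control-labelled library of that series was likewise the lowest of its group, at 346.3 and 603.9 CPM. In floxed neurons labelled control, RLTR6-int_dup939 was highest at 38.6 CPM (nearest 11.6). In KO Cas9 GFP neurons, MuRRS4-int was highest at 1202 CPM (nearest 1079).

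edgeR's interaction test between experiments passed for 6 members. On the log2 scale the effect in the Emx1-Cre cortex exceeded that in NPCs by 3.20 for MER92-int and by 0.98 for MMERGLN-int, whose unique counts without dup223 gave ratios of 2.17 in NPCs and 2.15 in the cortex. The 4 MER92-int copies called in the cortex lie in 1 locus and held 0 unique counts in every NPC library. For 4 copies the tested difference was from the floxed neurons, where Trim28 goes against the labels, so its size and order depend on the direction taken there. As labelled, the cortex effect differed by 3.98 for MuRRS4-int_dup272 and 4.93 for MuRRS4-int_dup273, and with the floxed contrast turned by 1.23 and 2.06. The value for MuLV-int_dup107 was 9.72 as labelled, but the floxed libraries held 1 count in 1 library labelled KO and 7 in 1 labelled control, so no difference between the experiments is read from it. The NPC effect differed by 5.01 for RLTR6-int_dup939 as labelled and by -4.18 turned. None of the 4 passed when turned. Experiments differ in tissue, age, vector and library set at once, and these cannot be told apart.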

How the results depend on the processing

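The 4 subfamily calls in the Emx1-Cre cortex were also made by DESeq2, with RLE factors and with gene library sizes. Without the low-count filter MuRRS4-int fell under the fold threshold (0.49) and LTRIS4B, which had not passed that filter, was called up (2.75, adjusted p = 0.00698), as it was without KO 60 or any 1 control (2.43 to 3.03, adjusted p 0.00465 to 0.0233). By DESeq2, 2 subfamilies were called up in NPCs (LTR48 and MURVY-int), as with gene library sizes (2), 2 copies were called down in floxed neurons, and the effect as labelled differed for 3 subfamilies between cortex and floxed neurons, 2 subfamilies between NPCs and floxed neurons and 2 copies between NPCs and floxed neurons. Gene library sizes gave 3 subfamilies up in Cas9 GFP neurons. Without the low-count filter, 16 copies were up in NPCs, 27 in cortex and 2 down in floxed neurons. The replicate block gave 18 copies up in NPCs and changed no other count by over 1.5 times. In alternatives chosen after the data were seen, the number series of the floxed libraries as a block gave 1 subfamily and 3 copies called down there, and turning the floxed contrast left 0 copies whose effect differed from cortex and 0 from NPCs in edgeR. Turned, DESeq2 found 1 subfamily and 2 copies for cortex and 0 subfamilies and 1 copy for NPCs.

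Leaving out 1 library each, copies called up in NPCs ran from 2 to 13, subfamilies up in Cas9 GFP neurons from 0 to 2, copies called down in floxed neurons from 0 to 1 and in cortex from 0 to 1. Trim28 in NPCs ran from -1.997 to -1.62 and in Stop-Cas9-GFP neurons from -0.16 to 0.055 on the log2 scale. With gene library sizes the direction turned for MuLV-int (0.030), MER31B (0.25) and MER92-int (0.11) in NPCs, MMERGLN-int in Cas9 GFP neurons (0.082) and MuRRS4-int in Stop-Cas9-GFP neurons (0.11).

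None of the following passed the test, and their direction turned when a library was left out. In NPCs, MuLV-int ran from -0.43 to 0.0088, MER31B from -0.41 to 0.40 and MER92-int from -0.52 to 0.25. In Stop-Cas9-GFP neurons, MER31B ran from -0.18 to 0.12 and MuRRS4-int from -0.023 to 0.0060. In floxed neurons, MuLV-int ran from -0.16 to 0.13, MMERGLN-int from -0.13 to 0.22, MER31B from -0.19 to 0.079, MER92-int from -0.72 to 0.68 and MuRRS4-int from -0.27 to 0.052. The causes were not tested. With 1 control each, the Cas9 GFP and Stop-Cas9-GFP comparisons assume that the control varies like the KO libraries, and leaving it out was not run; copies in these experiments were not analysed here. Of 191 full proviruses few held enough unique reads to be tested, as counted above by family.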

Other observations

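LTR48, an LTR subfamily, was 30.5 to 56.0 subfamily CPM in KO NPCs (n = 6) and 9.17 and 17.4 CPM in the controls, with a log2 fold change of 1.601 (SE 0.360, edgeR adjusted p = 0.0921). MURVY-int, named for murine retrovirus sequences repeated on the Y chromosome, was 53.0 to 77.5 CPM in KO NPCs and 26.0 and 34.8 CPM in control (1.10, SE 0.244, edgeR adjusted p = 0.0897). Neither passed in edgeR; both passed in DESeq2. They were chosen after their values were seen. Of the 544 annotated MURVY-int copies only 126 lie outside X and Y. In the Cas9 GFP neurons LTR48 had the other direction, at 43.9, 57.1, 35.2 and 64.04 CPM in KO and 86.7 CPM in the control (-0.79, edgeR adjusted p = 0.516), and MURVY-int was 4.93 to 11.8 CPM in KO and 0 in the control (adjusted p = 0.495). In the Stop-Cas9-GFP neurons, the floxed neurons and the cortex the log2 fold change was -0.21, -0.06 and -0.32 for LTR48 and 0.66, -0.58 and -0.002 for MURVY-int, with edgeR adjusted p of 0.854 or more.

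The table of unique reads and that of shared reads did not give the same totals for the same subfamily. In KO NPCs MuLV-int held 28681 unique counts on its copies and 6469 counts in the subfamily table, and RLTR6-int 9290 and 2639, while MMERGLN-int held 285106 and 250722. In KO cortex MuLV-int held 654 and 660. MuLV-int_dup74, with 96.5% of the unique MuLV-int counts in KO NPCs, did not pass there (log2 fold change 0.02, edgeR adjusted p = 0.9996). This copy overlaps an exon of AI506816, annotated as a processed transcript, on the same strand. The part of that gene's own transcripts in its counts was not tested. The cause of the unequal totals was not tested.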
